A study of Homo sapiens with 32 samples.

Results

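The genes described here encode the machinery of N-glycosylation, from the supply of dolichol and sugar donors through assembly of the lipid-linked glycan and its transfer to protein to the first trimming of the glycan. They are a list of 38 genes chosen by name for their step in the pathway. Of the 38 genes, 37 had reads among the 15105 named genes with reads, and 36 passed the filter on low counts among the 11186 genes tested. STT3B, a catalytic subunit of the oligosaccharyltransferase, was listed over a region of 0 bases and had no reads. TUSC3, an oxidoreductase subunit of the same enzyme, had 16 reads over all 32 libraries and was not tested.

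The study used HCT116, a line from a human colorectal carcinoma, and set loss of the RNA-binding protein IGF2BP3 against ER (endoplasmic reticulum) stress. New and total RNA were measured with SLAM-seq, in which RNA made while 4-thiouridine (s4U) is present is recognised by T-to-C changes in 3′-end reads. In the tagged line both copies of IGF2BP3 carried the degron mAID at the endogenous gene, and the parental line had no tag; whether the tagged line is a single clone was not given in the sources used here. Both lines carried OsTIR1, the plant receptor that directs mAID-tagged proteins to degradation when auxin is present, behind a doxycycline-inducible promoter. In all 32 wells doxycycline was present at 200 ng/mL (24 h), and s4U at 250 µM over the last 2 h. Stressed wells had 5 µg/mL tunicamycin for 5 h, and unstressed wells had DMSO. Wells with auxin had 500 µM of it for 9 h, against DMSO in vehicle wells. The 8 groups of 4 libraries were tagged stressed with auxin, tagged stressed with vehicle, parental stressed with auxin, parental stressed with vehicle, and the same 4 combinations without stress.

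N-glycans are built on dolichol, a long lipid of the ER membrane, first on the cytosolic face and then in the lumen, and are moved as a whole to asparagines of nascent proteins by the oligosaccharyltransferase. Glucosidases then trim the glucoses, and a folding sensor puts a glucose back on proteins that are not yet folded, which keeps them with the ER's lectin chaperones. Tunicamycin blocks DPAGT1, the enzyme that starts the glycan on dolichol phosphate, and ER chaperone genes carry promoter elements that respond to the stress that follows.

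Promoter windows from RefSeq (GRCh38.p14, the same build as the submitters' hg38), each reaching from 250 bases before the start of transcription to 50 bases after it, were found for 34 of the 38 genes. The ER stress response element (ERSE), which is CCAAT, any 9 bases and CCACG, was searched on both strands. It was complete in 1 of the 34 windows, that of ALG12, against 27 of 35116 windows of all genes (0.0769%). With 1 of its 10 fixed letters allowed to differ it was found in 3 of 34 (ALG12, ALG5 and NUS1), against 545 of 35116 (1.55%). These 3 windows are shown because their genes had more reads in stressed cells and hold the only matches of that kind among the 34. The ALG12 window is chr22:49918389-49918688 on the minus strand, and its match lies at positions -134 to -116 from the start. The ALG5 window is chr13:36999291-36999590 on the minus strand, with a match in the opposite orientation at -1 to 18. The NUS1 window is chr6:117675219-117675518 on the plus strand, with a match at -18 to 1. Capitals mark the letters that match the fixed letters of the element, and the start base counts as 1.
ALG12: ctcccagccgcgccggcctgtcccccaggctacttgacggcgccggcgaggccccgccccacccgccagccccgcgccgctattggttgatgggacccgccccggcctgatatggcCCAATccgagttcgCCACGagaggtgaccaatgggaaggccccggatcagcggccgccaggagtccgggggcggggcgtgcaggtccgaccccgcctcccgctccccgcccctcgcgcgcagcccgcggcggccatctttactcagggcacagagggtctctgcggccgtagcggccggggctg
ALG5: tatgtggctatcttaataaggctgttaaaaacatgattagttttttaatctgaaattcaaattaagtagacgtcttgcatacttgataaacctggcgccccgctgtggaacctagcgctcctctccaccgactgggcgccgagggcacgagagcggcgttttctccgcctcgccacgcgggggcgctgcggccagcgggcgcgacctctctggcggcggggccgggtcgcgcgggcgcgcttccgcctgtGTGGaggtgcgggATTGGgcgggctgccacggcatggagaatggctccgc
NUS1: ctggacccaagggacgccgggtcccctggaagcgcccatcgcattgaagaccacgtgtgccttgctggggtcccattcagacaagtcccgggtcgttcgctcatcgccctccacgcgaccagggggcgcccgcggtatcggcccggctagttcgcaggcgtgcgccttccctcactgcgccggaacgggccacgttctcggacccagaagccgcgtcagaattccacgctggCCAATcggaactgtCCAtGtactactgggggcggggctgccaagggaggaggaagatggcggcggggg
The element of HSPA5, the ER chaperone BiP, is complete at its own promoter and reads:
HSPA5: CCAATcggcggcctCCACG
In its own orientation the ALG12 element reads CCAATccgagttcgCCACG. Among the other elements searched in the 34 windows, ERSE-II (ATTGG, any 1 base and CCACG) was found in 0 against 0.0541% of all windows, the core TGACGTGG of the UPR element in 1 (DHDDS) against 0.729%, and the letters TGATGNAAN of the amino acid response element in 0 against 3.61%. The short element CCACG, which is contained in the ERSE and in ERSE-II, was in 22 of the 34 windows, against 38.1% of all windows. The windows of all genes include antisense and uncharacterised genes and were not matched to the 34 for base composition. A match is a run of letters and not a site shown to be bound.

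Libraries held 0.987 M to 6.98 M reads in the genes kept, of which 0.0877 M to 0.845 M were labelled, that is, carried a T-to-C change. Replicates were separate wells, so p-values measure the spread between wells. In stressed cells HSPA5 was at 3322 to 4763 CPM (read counts scaled to library depth), against 601 to 899 CPM in unstressed cells, and the stress gene DDIT3 was at 496 to 971 against 14.8 to 29.6 CPM. IGF2BP3 mRNA changed by 0.12 ± 0.05 on the log2 scale with stress (edgeR adjusted p = 0.127), and protein loss was not measured. The epithelial keratins KRT18 and KRT19 were at 667 to 1041 and 726 to 1139.5 CPM in stressed cells, against 486 to 1006 and 702 to 1158 CPM in unstressed cells. The other epithelial markers examined were lower. EPCAM was at 125 to 385 CPM in stressed cells, against 198 to 436 CPM in unstressed cells, and KRT8 at 36.9 to 329 against 124 to 407 CPM. CLDN4 was at 35.6 to 89.1 against 50.3 to 108 CPM, and CDH1 at 2.54 to 63.4 against 5.65 to 45.3 CPM. Of the markers of other cell types, PECAM1 and ALB stayed at or under 1.22 CPM, PTPRC and COL3A1 were not among the genes with reads, and COL1A1 was at 21.9 to 59.7 CPM in stressed cells, against 18.4 to 30.9 CPM in unstressed cells. The part of that COL1A1 difference in the results was not tested. Replicate 1 of stressed auxin-treated parental cells stood apart, with the fewest reads (0.987 M). For 12 of the 36 genes its CPM lay above the other 15 stressed libraries, and for 16 genes below them. It is called the smallest library below, and many results are also given without it.

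Stress raised total reads of 15 of the 36 genes and lowered 1, when each stressed group was set against its unstressed group and the 4 differences were averaged. A gene is called when its edgeR adjusted p, from the quasi-likelihood test with Benjamini-Hochberg adjustment, is under 0.05. Of all 11186 genes tested, 21.9% were called, 11.1% higher and 10.8% lower in stressed cells. The median log2 change was 0.20 over the 36 genes and 0.01 over all genes tested. In these bulk libraries fewer cells holding an RNA and less of it per cell cannot be told apart. Without the smallest library 18 genes rose and 1 fell, since DOLPP1 (0.26 ± 0.08), MOGS (0.26 ± 0.05) and GANAB (0.17 ± 0.05) passed as well, and none of the 16 was lost; 30.9% of all genes were called in that fit.

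**Figure D1:**
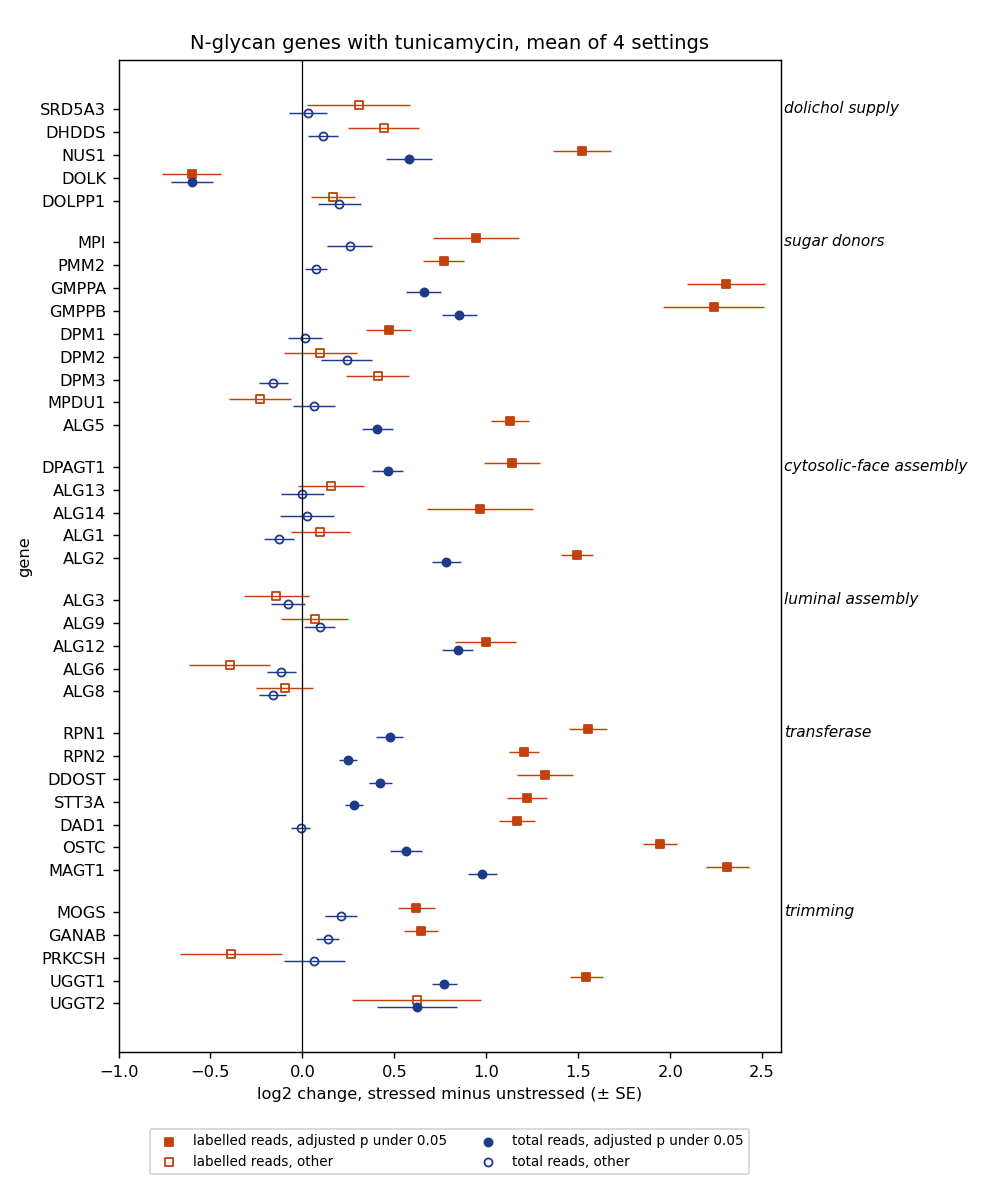
Log2 change in stressed minus unstressed cells, averaged over both lines and both auxin settings, for the 36 genes tested (rows, grouped by step), with standard errors as bars; squares are labelled reads, circles total reads, and filled symbols have an edgeR adjusted p under 0.05. All 7 transferase genes have filled squares above 1, and DOLK is the single gene with both symbols filled below 0.

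Of the 5 genes of dolichol supply, NUS1 rose, DOLK fell and 3 did not pass. NUS1, at chr6:117675469-117710727 (the span of the gene in RefSeq, GRCh38.p14, as for the genes below), encodes a subunit of the cis-prenyltransferase that makes the dolichol chain. It had 23.7, 41.2 and 58.8 CPM (lowest, median and highest) in the 16 stressed libraries, against 10.4, 29.6 and 42.6 CPM in the 16 unstressed ones, a log2 change of 0.58 ± 0.13 (SE, edgeR adjusted p = 7.71e-04). Its ranges overlapped, and the 3 lowest unstressed values were those of vehicle-treated parental cells. DOLK, at chr9:128945530-128947603, encodes the kinase that turns dolichol into dolichol phosphate, the lipid on which DPAGT1 works. It had 3.81, 20.7 and 32.6 CPM in stressed libraries, against 24.1, 32.5 and 43.3 CPM in unstressed ones. The change was -0.60 ± 0.11 (SE, edgeR adjusted p = 1.30e-04). DOLK's lowest value was that of the smallest library, the next lowest stressed value was 17.4 CPM, and without that library the change was -0.56 ± 0.09 (edgeR adjusted p = 3.87e-06). DHDDS, the catalytic partner of NUS1, changed by 0.11 ± 0.08. SRD5A3, the reductase of the last step to dolichol, changed by 0.03 ± 0.10, and DOLPP1, a phosphatase that returns spent dolichol carrier, by 0.20 ± 0.12.

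Among the 9 genes of sugar donors, 3 rose and 6 did not pass. GMPPA and GMPPB encode the regulatory and the catalytic subunit of the enzyme that makes GDP-mannose. GMPPB, at chr3:49719916-49723951, had 21.1, 32.4 and 53.4 CPM in stressed libraries, against 11.7, 17.9 and 25.8 CPM in unstressed ones. Its change was 0.85 ± 0.09 (SE, edgeR adjusted p = 1.78e-08), with ranges that overlapped. The highest stressed GMPPB value was that of the smallest library, and without it the change was 0.82 ± 0.09. GMPPA, at chr2:219498891-219506989, had 58.5, 77.3 and 178 CPM in stressed libraries, against 40, 52.4 and 68 CPM in unstressed ones. The change in GMPPA was 0.66 ± 0.09 (SE, edgeR adjusted p = 2.02e-06), and 0.57 ± 0.06 without the smallest library, which held the highest value. ALG5, the synthase of dolichol-phosphate glucose, rose by 0.41 ± 0.08 (edgeR adjusted p = 3.21e-04). The genes upstream in the mannose route did not pass: MPI, phosphomannose isomerase, changed by 0.26 ± 0.12, and PMM2, phosphomannomutase, by 0.07 ± 0.06. The dolichol-phosphate mannose synthase, with DPM1 as its catalytic subunit and DPM2 and DPM3 as stabilising subunits, changed by 0.01 ± 0.09, 0.24 ± 0.14 and -0.16 ± 0.08 in the order named. MPDU1, needed for the use of both lipid-linked sugar donors, changed by 0.06 ± 0.12. The highest stressed value of MPI, DPM2 and MPDU1 was that of the smallest library, and without it their changes were 0.13 ± 0.07, 0.06 ± 0.06 and -0.06 ± 0.07.

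On the cytosolic face, DPAGT1 and ALG2 rose and 3 of 5 genes did not pass. DPAGT1, at chr11:119093874-119101853, encodes the enzyme that tunicamycin blocks. It had 35.6, 46.6 and 58.4 CPM in stressed libraries, against 21.7, 35.5 and 45.2 CPM in unstressed ones, a change of 0.46 ± 0.08 (SE, edgeR adjusted p = 6.26e-05). The ranges overlapped, and in each of the 4 settings the change was above 0. Without the smallest library, which held the lowest stressed value, the DPAGT1 change was 0.48 ± 0.08. ALG2, at chr9:99216425-99221942, adds mannoses after the one placed by ALG1. It had 44.5, 111 and 130.1 CPM in stressed libraries, against 51.8, 62.5 and 78.7 CPM in unstressed ones, and changed by 0.78 ± 0.08 (SE, edgeR adjusted p = 2.69e-09). Only the smallest library brought the ALG2 ranges to overlap: without it the stressed libraries held 99.2 to 130.1 CPM. ALG13 and ALG14, the subunits of the enzyme that adds the next N-acetylglucosamine after DPAGT1, changed by -0.00 ± 0.12 and 0.03 ± 0.14, and ALG1, the mannosyltransferase that follows, by -0.13 ± 0.08.

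Of the 5 luminal assembly genes, ALG12 rose and the others did not pass. ALG12, at chr22:49859311-49918438, encodes a mannosyltransferase of the glycan's outer branch and is the gene whose complete ERSE is shown above. It had 39.8, 45.2 and 66.9 CPM in stressed libraries, against 16.4, 25.8 and 35.7 CPM in unstressed ones. These ranges did not overlap, and the change was 0.84 ± 0.08 (SE, edgeR adjusted p = 1.62e-09). The other mannosyltransferases of luminal assembly, ALG3 and ALG9, changed by -0.08 ± 0.09 and 0.09 ± 0.08. The glucosyltransferases ALG6 and ALG8 changed by -0.11 ± 0.08 and -0.16 ± 0.07.

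Of the 7 tested genes of the oligosaccharyltransferase 6 rose, and the median log2 change of the 7 was 0.42. MAGT1, at chrX:77825747-77895568, encodes an oxidoreductase subunit of the STT3B form of the enzyme. It had 116, 136 and 267 CPM in stressed libraries, against 54.7, 73 and 82.4 CPM in unstressed ones, without overlap. The change was 0.98 ± 0.08 (SE, edgeR adjusted p = 1.10e-11), and 0.91 ± 0.05 without the smallest library. OSTC, at chr4:108650599-108667820, encodes a subunit of the STT3A form. It had 89, 232 and 283 CPM in stressed libraries, against 132, 152 and 186 CPM in unstressed ones, and changed by 0.56 ± 0.09 (SE, edgeR adjusted p = 8.37e-06). The lowest stressed OSTC value was that of the smallest library, and without it the lowest of the other 15 stressed values equalled the highest unstressed value to the rounding used, 186.0 CPM, with a change of 0.62 ± 0.04. The core subunits RPN1 and DDOST rose by 0.47 ± 0.07 and 0.42 ± 0.06. RPN2, another core subunit, rose by 0.25 ± 0.05, and STT3A, the catalytic subunit that works beside the translocon, by 0.28 ± 0.05. Their edgeR adjusted p ran from 3.60e-06 for DDOST to 1.69e-04 for RPN2. DAD1, a small core subunit, was at 176, 200.0 and 248 CPM in stressed libraries, against 162, 205 and 245 CPM in unstressed ones, a change of -0.01 ± 0.05 (SE, edgeR adjusted p = 0.932).

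Among the 5 genes of trimming and the folding sensor, UGGT1 and UGGT2 rose and the glucosidases did not pass. UGGT1, at chr2:128091200-128195677, encodes the sensor that puts a glucose back on unfolded glycoproteins. It had 153, 175 and 344 CPM in stressed libraries, against 87.5, 104 and 130.2 CPM in unstressed ones. The ranges did not overlap, and the change was 0.77 ± 0.07 (SE, edgeR adjusted p = 2.37e-10), or 0.71 ± 0.04 without the smallest library. UGGT2, at chr13:95801580-96053401, is its paralogue and had few reads, with 4.44, 8.72 and 18.3 CPM in stressed libraries, against 0.892, 6.22 and 17.6 CPM in unstressed ones. Its change of 0.62 ± 0.22 (SE, edgeR adjusted p = 0.0355) lost the call in 14 of 39 other settings or subsets tried. MOGS, the glucosidase that removes the outer glucose, changed by 0.21 ± 0.09. GANAB and PRKCSH, the catalytic and regulatory subunits of the glucosidase that follows, changed by 0.14 ± 0.06 and 0.06 ± 0.17. The smallest library held the highest PRKCSH value, 308 CPM against 44.6 to 90.3 CPM in unstressed libraries, and without it PRKCSH changed by -0.17 ± 0.07 (edgeR adjusted p = 0.0565).

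**Figure D2:**
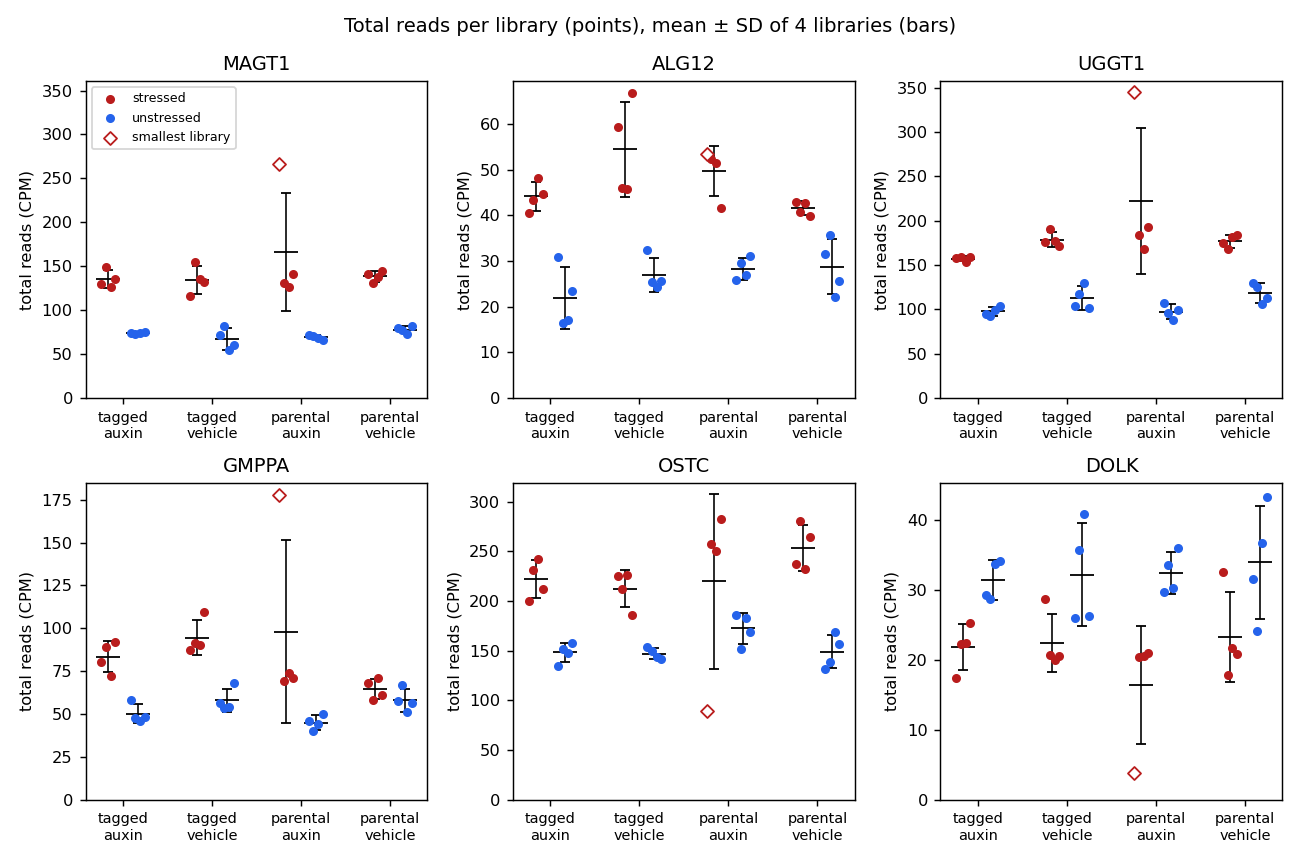
Total reads in CPM (vertical axes, from 0) for 6 genes in each of the 32 libraries, stressed (red) left of unstressed (blue) in each line and auxin setting; bars are mean ± SD of 4 libraries and the open diamond is the smallest library. Stressed MAGT1, ALG12 and UGGT1 libraries lie above all unstressed ones, and the open diamond stands far from its group in all panels but that of ALG12.

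Across the 36 genes, the CPM of stressed and unstressed libraries did not overlap for 3 (ALG12, MAGT1 and UGGT1), all of them higher in stressed cells. Ranges without overlap were found for 1.7% of all genes tested, while 21.9% of all genes were called. Without the smallest library 5 genes did not overlap, with ALG2 and OSTC added, and 2.61% of all genes.

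Labelled reads, which come from RNA made in the last 2 h, gave more calls than total reads. Of the 36 genes 21 rose and 1, DOLK, fell, where 34.6% of all 8980 genes tested for labelled reads were called, 16.9% higher and 17.7% lower. The median log2 change was 0.71 over the 36 genes, against -0.03 over all genes tested, and 27 of 36 genes had a larger change in labelled than in total reads. The share of all genes with a larger labelled change was not counted. By step, 7 of 7 transferase genes, 6 of 9 sugar donor genes, 3 of 5 cytosolic-face genes, 3 of 5 trimming genes, 1 of 5 luminal genes and 1 of 5 dolichol genes rose. Labelled counts were scaled by themselves, so each change is relative to the typical gene. Labelled reads made up 8.88% to 12.7% of gene reads in stressed libraries, against 11.4% to 13.5% in unstressed libraries, and scaling by total reads instead moved the median of all genes to a log2 change of -0.28. On that scale 20 of the 36 genes rose and 4 fell (DOLK, ALG6, MPDU1 and PRKCSH), DPM1 no longer passed (0.22, edgeR adjusted p = 0.126), and over all genes 845 rose and 3859 fell. Of the T positions read, 0.71% to 0.94% carried a T-to-C change in stressed libraries, against 0.91% to 1.23% in unstressed libraries. How far this difference enters the labelled counts was not tested. Because every library received s4U, the rate of T-to-C changes without it was not measured.

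The largest labelled changes were in MAGT1, GMPPA, GMPPB, OSTC and RPN1. MAGT1 had 159, 207 and 267 labelled CPM in stressed libraries, against 24.1, 39.9 and 56.5 in unstressed ones, a change of 2.31 ± 0.12 (SE, edgeR adjusted p = 9.17e-30). GMPPA had 44.1, 67.7 and 187 labelled CPM in stressed libraries, against 2.58, 16.3 and 24 in unstressed ones, a change of 2.30 ± 0.21 (SE, edgeR adjusted p = 2.59e-16). Neither gene's groups overlapped. GMPPB had 20, 34.4 and 120.2 labelled CPM in stressed libraries, against 2.4, 7.25 and 20.5 in unstressed ones, and changed by 2.24 ± 0.27 (SE, edgeR adjusted p = 9.73e-12); its lowest stressed value lay just under its highest unstressed one. OSTC had 214, 393 and 483 labelled CPM in stressed libraries, against 69.5, 98.2 and 131 in unstressed ones, and changed by 1.94 ± 0.09 (SE, edgeR adjusted p = 4.29e-31). RPN1 had 145, 177 and 294 labelled CPM in stressed libraries, against 47.8, 68.2 and 108 in unstressed ones, and changed by 1.55 ± 0.11 (SE, edgeR adjusted p = 5.68e-22). OSTC and RPN1 did not overlap between stressed and unstressed libraries, and this held for 10 of the 36 genes, against 2.49% of all genes tested, while 34.6% of all genes were called. The other genes whose labelled ranges did not overlap were DAD1, DDOST, NUS1, RPN2, STT3A and UGGT1. With the smallest library left out, 22 genes rose and 2 fell in labelled reads (39.1% of all genes called), as DPM3 (0.41 ± 0.17, edgeR adjusted p = 0.0433) and MPDU1 (-0.36 ± 0.15, 0.0462) passed as well. Then 12 genes did not overlap, with ALG2 and ALG5 added, and 3.62% of all genes.

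ALG14, DAD1, DPM1, GANAB, MOGS, MPI and PMM2 rose in labelled reads and did not pass in total reads, with labelled changes from 0.47 for DPM1 to 1.17 for DAD1. UGGT2 was called in total reads, and its labelled change was 0.62 ± 0.35 (SE, edgeR adjusted p = 0.153). In labelled reads NUS1 rose by 1.52 ± 0.16 and ALG2 by 1.49 ± 0.09, and DPAGT1 by 1.14 ± 0.15. UGGT1 rose by 1.54 ± 0.09, and ALG12 by 1.00 ± 0.16. DOLK fell by 0.60 on the log2 scale in both readings, to 35.7 labelled CPM in the median stressed library, against 61.9 in the median unstressed one. The 12 genes called in none of the readings were ALG1, ALG3, ALG6, ALG8, ALG9, ALG13, DHDDS, DOLPP1, DPM2, MPDU1, PRKCSH and SRD5A3. Of these, DHDDS rose in labelled reads in 6 of 40 other settings or subsets, and MPDU1 fell in 3. How many of all genes combine calls between the readings in these ways was not counted.

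The labelled share sets the labelled reads of a gene against its unlabelled ones. It rose for 21 of the 36 genes and fell for 0, where 28.2% of all genes were called, 13.5% higher and 14.7% lower. It is compared only within a gene, since the number of T positions in the counted region differs between genes. The median change of the log2 ratio was 0.59 over the 36 genes, against -0.06 over all genes. GMPPA reads were labelled to 7.04, 9.51 and 14.1% in stressed libraries, against 0.61, 4 and 6.83% in unstressed ones, a change of 1.83 ± 0.20 (SE, edgeR adjusted p = 2.42e-15). OSTC stood at 14.7, 18.9 and 22.9% in stressed libraries, against 6.55, 8.15 and 11.4% in unstressed ones, a change of 1.58 ± 0.09 (SE, edgeR adjusted p = 2.65e-33). Both genes had no overlap between the groups. MAGT1 stood at 9.52, 16.1 and 18.5% in stressed libraries, against 3.68, 7.1 and 11.1% in unstressed ones, a change of 1.56 ± 0.12 (SE, edgeR adjusted p = 9.45e-23); the lowest stressed value was that of the smallest library. GMPPB stood at 6.67, 11.6 and 21.4% in stressed libraries, against 1.79, 4.91 and 12.3% in unstressed ones, a change of 1.55 ± 0.26 (SE, edgeR adjusted p = 2.19e-07). Its groups overlapped. The groups of 4 genes did not overlap in the share (DAD1, GMPPA, OSTC and RPN2), against 1.26% of all genes tested, while 28.2% of all genes were called. MAGT1 joined them without the smallest library, when 1.5% of all genes did not overlap, and the share still rose for 21 genes and fell for 0 (28.5% of all genes called).

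DAD1 and ALG12 differed between the readings. Total reads of DAD1 changed by -0.01 ± 0.05, while 8.11, 10.9 and 14% of its reads were labelled in stressed libraries, against 3.96, 5.7 and 6.97% in unstressed ones, a change of 1.33 ± 0.09 (SE, edgeR adjusted p = 3.70e-25) with no overlap between the groups. In ALG12 total and labelled reads both rose, and the share was 9.52, 15.5 and 22.7% in stressed libraries, against 8.96, 17.3 and 25.6% in unstressed ones, a change of 0.20 ± 0.16 (SE, edgeR adjusted p = 0.374). DPM3 was called in the share (0.62 ± 0.16) and not in labelled reads (0.41 ± 0.17 (SE, edgeR adjusted p = 0.0515)), where it passed in 12 of 40 other settings or subsets. Of the 36 genes 13 rose in total reads, labelled reads and share: ALG2, ALG5, DDOST, DPAGT1, GMPPA, GMPPB, MAGT1, NUS1, OSTC, RPN1, RPN2, STT3A and UGGT1. Without centring on the typical gene, whose ratio fell by 0.36 in the median, 18 shares rose and 4 fell (ALG6, DOLPP1, MPDU1 and PRKCSH), while DPM1, DPM3 and MOGS no longer passed.

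**Figure D3:**
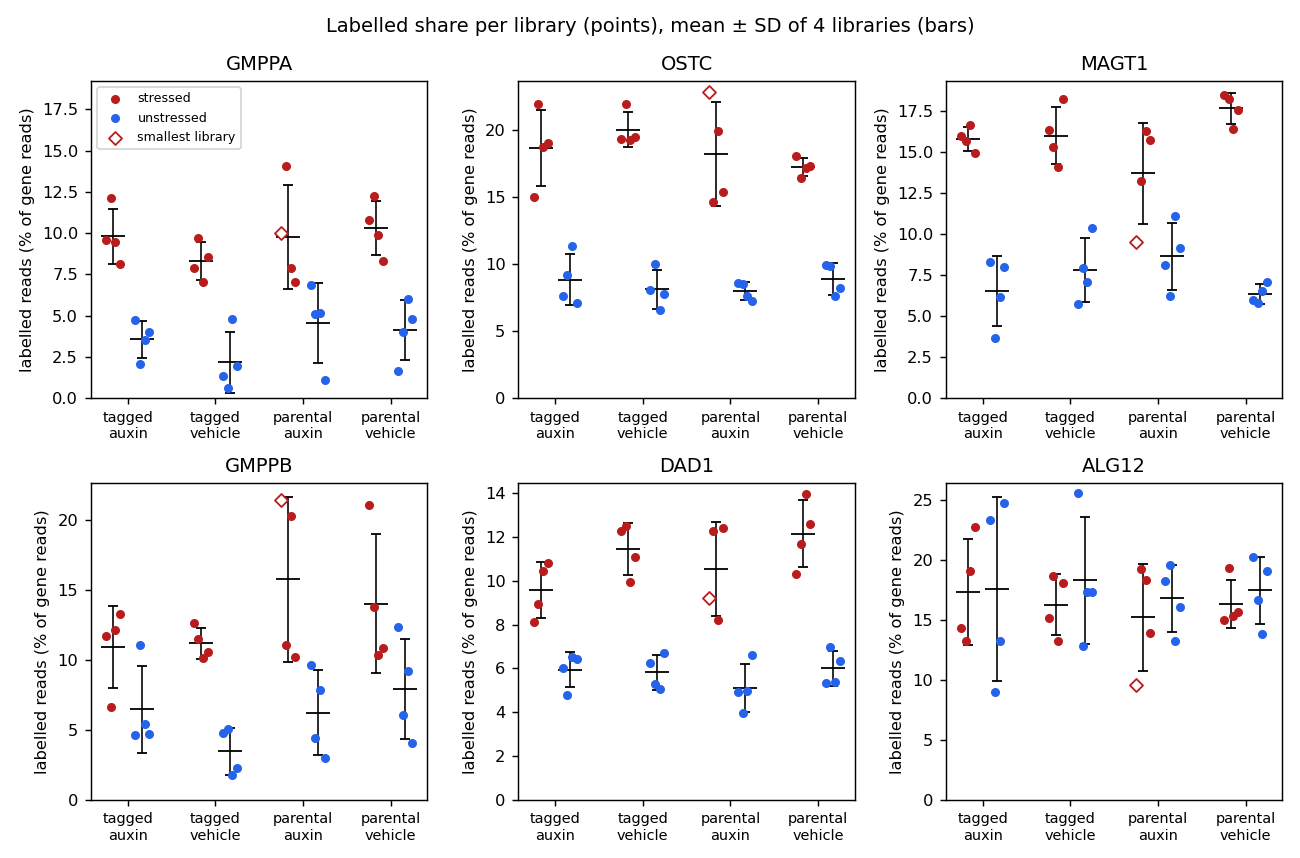
Labelled reads as a percent of a gene's reads (vertical axes, from 0) in each of the 32 libraries for 6 genes, stressed (red) left of unstressed (blue) in each line and auxin setting; bars are mean ± SD of 4 libraries and the open diamond is the smallest library. GMPPA, OSTC and DAD1 lie higher in all stressed libraries than in any unstressed one, and the ALG12 shares overlap throughout.

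Stress was also tested within each line and auxin setting, 4 stressed against 4 unstressed libraries. In total reads 8 of the 36 genes were called in tagged cells with auxin, all higher (all genes 4.15%, 3.02% higher and 1.13% lower), and 7 in tagged cells with vehicle, all higher (4.03%, 2.92% higher and 1.11% lower). In parental cells 11 were called with auxin, 10 of them higher (10.5%, 7.26% higher and 3.19% lower). With vehicle 9 were called in parental cells, all higher (12.9%, 7.65% higher and 5.26% lower). ALG12, ALG2, MAGT1 and UGGT1 were called in all 4 settings. Of the 16 genes called in the average, 15 had the same sign in all 4 settings, the exception being UGGT2, and ALG5 was called in none of the single settings although its change lay between 0.34 and 0.47 in all. The 16 genes were picked by the average of these same 4 differences, so agreement in sign was in part built in. MAGT1 changed by 0.87 ± 0.15 in tagged cells with auxin and 1.00 ± 0.15 with vehicle, and by 1.22 ± 0.15 in parental cells with auxin and 0.83 ± 0.15 with vehicle. NUS1 changed by 1.31 ± 0.25 in parental cells with vehicle and by 0.30 to 0.37 in the other 3 settings. Its libraries in unstressed vehicle-treated parental cells were at 14, 10.4, 32.2 and 14.1 CPM. GMPPA changed by 0.16 ± 0.18 in parental cells with vehicle, and by 0.70 to 1.04 in the other settings.

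**Figure D4:**
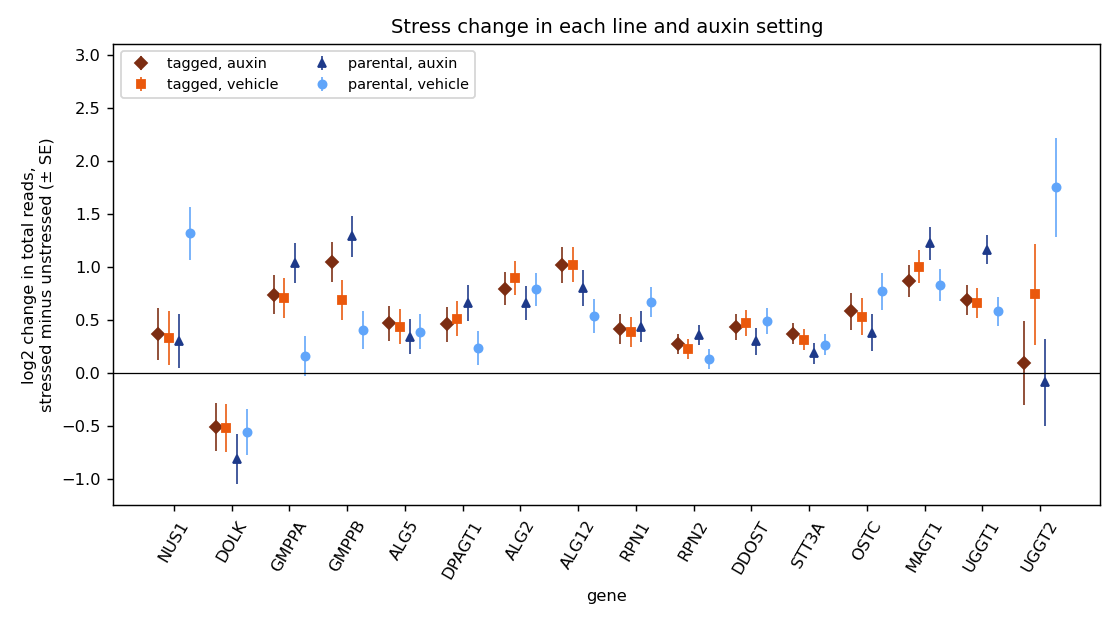
Log2 change of total reads in stressed minus unstressed cells (vertical axis, ± SE) for the 16 genes called in the average over settings, in tagged cells with auxin and vehicle and in parental cells with auxin and vehicle. DOLK lies below 0 and all genes but UGGT2 on one side of 0 in all 4 settings.

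The counts in single settings differed without the smallest library, which enters all of them through the shared estimate of the spread. Then 11 genes were called in tagged cells with auxin and 12 in tagged cells with vehicle, all of them higher (all genes 8.17% and 7.77%). In parental cells 12 were called with auxin (11 higher; all genes 9.32%) and 19 with vehicle (15 higher; 30.4%). In parental cells with auxin, the setting that holds this library, the UGGT1 change was 0.90 without it and 1.16 ± 0.14 with it, and the GMPPA change 0.66 and 1.04 ± 0.19. MPI and ALG9 were called there only with it.

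The design asks whether loss of IGF2BP3 alters these responses, which is the effect of auxin in tagged cells beyond its effect in parental cells. No gene of the 36 was called for that difference in total reads by edgeR, in stressed cells (all genes 0%) or in unstressed cells (0.0179%), and DESeq2 called 0 in both. At an unadjusted p under 0.05 there were 12 of 36 in stressed cells, with a smallest adjusted p of 0.166, and 1 of 36 in unstressed cells, with a smallest adjusted p of 0.681. With the smallest library left out these counts were 6 and 4, with 0 called in both (all genes 0% and 0.59%). Counts at an unadjusted p, here and below, stand without the share of all genes and are not read as a trait of these genes. In stressed cells the 36 differences lay between -1.12 and 0.90 on the log2 scale with a median SE of 0.24. Approximate 95% intervals show what was resolved: MAGT1 differed by -0.22 (interval -0.64 to 0.20), OSTC by 0.24 (interval -0.24 to 0.72) and ALG2 by 0.17 (interval -0.26 to 0.60). DPAGT1 differed by -0.13 (interval -0.58 to 0.32) and NUS1 by 0.71 (interval 0.03 to 1.39). UGGT1 differed by -0.49 (interval -0.87 to -0.11) and GMPPA by -0.70 (interval -1.21 to -0.19). ALG12 differed by -0.549 (interval -0.995 to -0.102), with an edgeR adjusted p of 0.184. DOLK differed by 0.31 (interval -0.34 to 0.95), GMPPB by -0.39 (interval -0.89 to 0.11) and UGGT2 by 0.72 (interval -0.42 to 1.85). The intervals of NUS1, UGGT1, GMPPA and ALG12 left out 0, and none of these genes passed after adjustment. Without the smallest library, which is in the parental group of these comparisons, UGGT1 differed by -0.23 ± 0.12, GMPPA by -0.34 ± 0.16, MAGT1 by 0.06 ± 0.14 and NUS1 by 0.67 ± 0.35. The count of 0 in stressed cells depended on the fit: with the first component of within-group variation as a covariate 17 genes were called (all genes 37.2%). With the component computed anew without the smallest library, in a fit that leaves this library out, 5 were called (10.8%), and without replicate 4 of stressed auxin-treated parental cells 3 (9.2%). In labelled reads 0 genes were called in stressed or unstressed cells by edgeR or DESeq2, with 3 and 2 at an unadjusted p under 0.05. Without the smallest library none was called in labelled reads either. GANAB and MOGS then had the smallest p in stressed cells. GANAB differed by -0.99 ± 0.22 (edgeR adjusted p = 0.0563) and MOGS by 0.82 ± 0.27 (edgeR adjusted p = 0.254).

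The stress change did not differ between tagged and parental cells for any of the 36 genes past the threshold (all genes 0%). At an unadjusted p under 0.05 there was 1 gene in total reads, ALG12, whose stress change was larger in tagged cells by 0.35 (interval 0.02 to 0.68) with an edgeR adjusted p of 0.999. There was 1 in labelled reads and 0 in the share. DESeq2 also called 0 in total and labelled reads. Whether auxin changed the stress response differently in both lines was tested as a further term, with 0 genes called in total or labelled reads by either tool, and 3 and 0 at an unadjusted p under 0.05.

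Auxin was also set against vehicle within each line. In unstressed parental cells, which have no tag, UGGT2, DOLPP1 and GMPPB were called (all genes 7.2%, 4.85% higher and 2.35% lower). UGGT2 was at 13.7, 9.84, 16 and 5.82 CPM with auxin, against 1.91, 0.892, 6.62 and 2.43 CPM with vehicle, a change of 1.88 ± 0.47 (edgeR adjusted p = 0.0165) that overlaps at its ends. DOLPP1 was at 71.3, 78.7, 69.5 and 67 CPM with auxin, against 30.2, 26.5, 54.9 and 47.4 CPM with vehicle, a change of 0.84 ± 0.23 (0.0302). GMPPB was at 11.7, 15.3, 12.9 and 18.6 CPM with auxin, against 23.2, 24.4, 20.6 and 23.8 CPM with vehicle, a change of -0.66 ± 0.19 (0.0353). The groups of DOLPP1 and GMPPB did not overlap. The 3 calls fell to 0 when any 1 of 5 of these 8 libraries was left out. Without the smallest library, which is in neither group, 12 genes were called (all genes 25.1%), with NUS1 (0.81), ALG13 (0.60), RPN1 (0.42) and GANAB (0.29) also higher and GMPPA (-0.35), DPM3 (-0.44), ALG9 (-0.47), RPN2 (-0.20) and UGGT1 (-0.27) lower.

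In unstressed tagged cells edgeR called 0 genes for auxin against vehicle (all genes 0.679%), with 6 at an unadjusted p under 0.05, and DESeq2 called 1. Leaving out the smallest library, 5 were called (all genes 16.1%): UGGT2 (1.41), RPN1 (0.44) and DPM1 (0.39) were higher, and GMPPB (-0.52) and MPDU1 (-0.52) lower. UGGT2, RPN1 and GMPPB thus had the same direction with auxin in tagged and in parental cells. In stressed cells 0 genes were called for auxin in tagged cells (all genes 0.0179%; 4 at an unadjusted p under 0.05; DESeq2 0) and 0 in parental cells (0.0179%; 6; DESeq2 1). Between the lines, over all settings, edgeR called 0 of the 36 genes (all genes 3.39%, 1.35% higher and 2.04% lower). DESeq2 called 1, and 2 had an edgeR p under 0.05 before adjustment. Without the smallest library GMPPA (0.24) and DPM2 (0.24) were higher, and OSTC (-0.19) and RPN2 (-0.11) lower, in tagged than in parental cells (all genes 6.51%).

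Other genes of the pathway were taken from lists that do not overlap with the 38. Of 8 further assembly and transferase genes, 2 rose in total reads with stress and 0 fell (all genes 11.1% higher and 10.8% lower). MLEC, an ER lectin that binds glucosylated glycans and associates with the transferase, rose by 0.51 ± 0.06 (edgeR adjusted p = 2.55e-08), and ALG11, which adds mannoses after ALG2, by 0.43 ± 0.13 (0.0194). The smallest library held the highest ALG11 value, 217 CPM, and without it ALG11 rose by 0.30 ± 0.08 (edgeR adjusted p = 0.00465) and MLEC by 0.47 ± 0.04. In labelled reads 4 of 7 rose (all genes 16.9%): MLEC (1.27) and the transferase subunits TMEM258 (0.93), OST4 (0.61) and KRTCAP2 (0.35). TMEM258, OST4 and KRTCAP2 were not called in total reads. Their total changes without the smallest library were -0.11 ± 0.05, 0.02 ± 0.08 and 0.01 ± 0.07. Of 15 genes of glycan maturation in the Golgi, 13 were tested in total reads, 0 rose and 3 fell (all genes 11.1% and 10.8%). MGAT4B, a branching N-acetylglucosaminyltransferase, was at 53.4, 99.9 and 125 CPM in stressed libraries, against 129, 168 and 192 CPM in unstressed ones, without overlap, and changed by -0.71 ± 0.08 (edgeR adjusted p = 2.73e-08). MGAT5, which adds another branch, changed by -0.25 ± 0.08 and the mannosidase MAN2A2 by -0.22 ± 0.07. With the smallest library left out the same 3 fell, and MAN1A2, an early-acting mannosidase, rose by 0.20 ± 0.06 (edgeR adjusted p = 0.00959). In labelled reads 10 of the Golgi genes were tested (all genes 16.9% higher and 17.7% lower). Of the 10, MGAT2 (0.93), MAN1A2 (0.60) and MGAT1 (0.36) rose, and MGAT5 (-0.66), MAN2A2 (-0.62) and MGAT4B (-0.59) fell. B4GALT1, a galactosyltransferase, also rose in labelled reads when the smallest library was left out (0.29 ± 0.12, edgeR adjusted p = 0.048). The de-glycosylating enzymes NGLY1 and ENGASE did not pass in total reads, with changes of 0.11 ± 0.11 and 0.14 ± 0.13.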

How the data were processed

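The 32 tables hold read counts per transcript, deposited by the authors, with total reads and reads that carry T-to-C changes side by side. The column layout per the file headers is that of Slamdunk, and hg38 is named in the submitters' processing notes; the version, thresholds and annotation are not given in the sources used here. Transcripts were named from the RefSeq table (GRCh38.p14), and each gene was represented by the transcript that held most of its reads when libraries were summed; 23 of the 37 genes found had several. Transcripts matched to no symbol took 36.9% to 43.5% of counts and stayed out, and 72 genes whose counts were identical to those of another gene were dropped. The genes and lists were chosen with earlier results of these data known.

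Total and labelled counts were fitted over all 32 libraries with 8 group means in edgeR 4.0.16 (R 4.3.3), with its default expression filter, TMM scaling and robust quasi-likelihood tests, and adjusted over all genes by the Benjamini-Hochberg method. The share was tested as the ratio of labelled to other counts of a gene within a library. DESeq2 1.42.0 and limma 3.58.1 served as alternatives. CPM are counts scaled by the TMM-adjusted library totals, and counting error limits genes of few reads. Genes with full values are those called in total reads with a log2 change of at least 0.5, with DPAGT1 added as the drug's target.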

Additional observations from a re-analysis of the deposited data

Results flagged for a closer look

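Sets of 4 replicate values were taken from the genes given with full values and from library figures (gene reads, labelled percent and rate of T-to-C changes). Of these 192 sets 16, all of them of gene values, held a value far from the other 3 (Dixon's test, where chance gives about 1 in 20). Of these, 5 came from the smallest library, replicate 1 of stressed auxin-treated parental cells: DOLK at 3.81 CPM (others 20.4 to 21 CPM), GMPPA at 178 CPM (69.1 to 74.1 CPM), MAGT1 at 267 CPM (126 to 141 CPM), OSTC at 89 CPM (250.0 to 283 CPM) and UGGT1 at 344 CPM (168 to 193 CPM).

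Other total values stood apart in other libraries. ALG12 was at 41.5 CPM in replicate 4 of stressed auxin-treated parental cells. In stressed vehicle-treated tagged cells DOLK was at 28.6 CPM in replicate 1 and GMPPB at 27 CPM in replicate 3. DPAGT1 was at 27.5 CPM in replicate 2 of unstressed vehicle-treated tagged cells and at 45.2 CPM in replicate 2 of unstressed vehicle-treated parental cells. NUS1 was at 32.2 CPM in replicate 3 of unstressed vehicle-treated parental cells, where the others were at 10.4 to 14.1 CPM. UGGT2 was at 18.1 CPM in replicate 2 of stressed vehicle-treated parental cells.

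Among labelled reads, MAGT1 was at 45.6 labelled CPM in replicate 4 and GMPPA at 6.83 labelled CPM in replicate 1 of unstressed vehicle-treated parental cells. OSTC reads were labelled to 22% in replicate 2 of stressed vehicle-treated tagged cells, and GMPPB reads to 11.1% in replicate 2 of unstressed auxin-treated tagged cells.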

How the results depend on the processing

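Counts below are of the 36 genes in both directions, with the share of all genes tested that were called in parentheses where listed. For stress averaged over settings they stayed within 1.5 times under all alternatives run, but the number that fell in total reads was 2 with the component below as a covariate and 4 (DOLK, ALG3, DPM3 and PRKCSH) with it computed without the smallest library, against 1. With 1 library left out they ran from 15 to 19 in total reads, 22 to 24 in labelled reads and 21 to 22 in the share. For most fits with 1 library left out, here and below, the share of all genes called is not listed. It is given above for the main fits without the smallest library. Ranges over such fits are therefore not set against all genes. Replicate numbers do not pair the libraries: 35 of 112 same-number correlations were above 0.1, and 10 of 32 libraries were closest to their own number. With the replicate block the calls were 16, 23 and 21 in these readings, and no count moved by over 1.5 times. Of all genes, 2426 of 11186, 3086 of 8980 and 2510 of 8980 were then called.

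Smaller comparisons depended on the setting, and the cause was not tested. DESeq2 called 1 (2.3%) for auxin in stressed parental cells, 5 (11.9%) in unstressed parental cells, 1 (5.02%) in unstressed tagged cells, 1 (5.04%) between lines, and 14 (17.6%) for stress in vehicle-treated parental cells. With only the compared groups fitted, auxin gave 7 (15.3%) in unstressed parental, 4 (12.4%) in stressed tagged and 5 (19.8%) in unstressed tagged cells, and stress gave 1 (1.11%) in parental cells with auxin, 13 (9.03%) in tagged cells with auxin and 11 (7.49%) in tagged cells with vehicle.

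The first component of within-group variation (49% of it, led by the smallest library) as a covariate gave for stress 20 (36.6%) in the average, and for auxin 13 (32.8%) in stressed parental, 13 (31.1%) in unstressed parental, 5 (16%) in stressed tagged and 9 (24.8%) in unstressed tagged cells, and 5 (22.4%) between lines. For stress it gave 22 (40.9%) and 21 (37.8%) in parental cells with auxin and vehicle, and 14 (10.9%) and 13 (9.61%) in tagged cells with auxin and vehicle. The tag-by-auxin difference had 17 (37.2%) in stressed and 1 (2.18%) in unstressed cells, and 3 (9.98%) in labelled reads of stressed cells; the further term had 10 (24.4%). The component computed without the smallest library, which held 22.9% of that variation, an alternative chosen after seeing the data, gave 22 (39.5%) for stress in the average, 16 (34.8%) for auxin in unstressed parental, 11 (22.1%) in stressed tagged and 13 (29.3%) in unstressed tagged cells, 5 (12.5%) between lines, 23 (41.7%) for stress in parental cells with vehicle, and 16 (14.7%) and 14 (12.2%) in tagged cells with auxin and vehicle. Stress by line had 3 (6.69%), the tag-by-auxin difference 5 (10.8%) in stressed and 2 (5.27%) in unstressed cells and 1 (0.757%) in labelled reads of stressed cells, and the further term 1 (4.57%). Under it PRKCSH changed by -0.16 (edgeR adjusted p = 0.0133), a turned sign.

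With 1 library left out, counts ran from 0 to 4 (7.58%) for auxin in stressed parental, 0 to 12 in unstressed parental and 0 to 5 in unstressed tagged cells, 0 to 4 between lines, and 0 to 3 (9.2%) for the tag-by-auxin difference in stressed cells. For stress they ran from 7 to 13 in parental cells with auxin, 7 to 19 with vehicle, and 5 to 11 in tagged cells with auxin and 5 to 12 with vehicle. The highest count came without the smallest library, except for auxin in stressed parental cells and the tag-by-auxin difference (both without replicate 4 of stressed auxin-treated parental cells) and for stress in parental cells with auxin (without replicate 2 of that group). In unstressed parental cells the auxin calls fell to 0 without replicate 1 or 3 of the auxin wells or replicate 1, 2 or 4 of the vehicle wells and to 1 without replicate 2 of the auxin wells, and were 6 and 7 without auxin replicate 4 and vehicle replicate 3. The lowest stress counts were 5 in tagged cells with auxin (without replicate 4 of stressed or replicate 2, 3 or 4 of unstressed auxin wells), 5 in tagged cells with vehicle (without replicate 2 or 4 of stressed or replicate 1 or 3 of unstressed vehicle wells), 7 in parental cells with auxin (without replicate 2 of unstressed auxin wells) and 7 in parental cells with vehicle (without replicate 2 of stressed vehicle wells).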

Other observations

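Some of these genes start back to back with another gene. A start on the opposite strand, at most 1000 bases upstream, was found for 12 of the genes with a start in RefSeq (GRCh38.p14), and the neighbours with a gene name were examined after the values of the N-glycan genes had been seen. CRELD2, an ER protein, starts 196 bases from ALG12, in the promoter window printed above. It was at 206, 301 and 346 CPM in stressed libraries, against 83.2, 93.6 and 128 CPM in unstressed ones, a log2 change of 1.65 ± 0.06 (edgeR adjusted p = 1.44e-19) without overlap, and its labelled reads changed by 3.39. SEC61B, a subunit of the ER translocon, starts 340 bases from ALG2. Its total reads changed by 0.30 ± 0.13 (edgeR adjusted p = 0.121) and its labelled reads by 2.10, with 53.4, 309 and 405 labelled CPM in stressed libraries, against 30.1, 72.9 and 97.6 in unstressed ones. Without the smallest library the total change of SEC61B was 0.36 ± 0.11 and was called (edgeR adjusted p = 0.00966). NUP188, a nuclear pore protein, starts 96 bases from DOLK, and its total reads changed by -0.10 ± 0.10 (edgeR adjusted p = 0.545). Without the smallest library NUP188 changed by -0.03 ± 0.04 in total reads and by -0.26 ± 0.10 in labelled reads, where it was called (edgeR adjusted p = 0.0374). TMEM186 next to PMM2, MOCS3 next to DPM1 and EEF1AKMT4 next to ALG3 changed by -0.04 ± 0.13, -0.17 ± 0.08 and -0.10 ± 0.21 in total reads, none of them called. Labelled reads of TMEM186 and MOCS3 changed by -0.06 ± 0.12 and -0.07 ± 0.15 without the smallest library, neither of them called.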
